A study of Mus musculus with 16 samples.

Results

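The 9 rows described here include those of 5 mouse genes grouped as negative regulators of interferon signaling, Usp18, Dhx58, Adar, Ptpn6 and Samhd1. The other 4 are the rows of genes whose exons overlap them on the opposite strand, Gm44148 (Usp18), Dhx58os (Dhx58), Chrnb2 (Adar) and Gm20531 (Ptpn6). All 9 were chosen by name among the 48440 rows of a raw count table, and 5 of the 9 had enough counts to be tested. The table holds polyA RNA of bone marrow–derived macrophages (BMDMs), which are macrophages grown from marrow cells. There were 16 libraries in 4 groups of 4. The study asked how VLX-1005, an inhibitor of human 12-lipoxygenase, alters macrophages at rest and under inflammatory stimulation.

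All 4 groups came from NOD.hALOX12 mice aged 8 weeks, which the study describes as female. NOD is an autoimmune diabetes strain, and in this line the coding region of human ALOX12 stands in for that of mouse Alox15 in every tissue, under the mouse regulatory elements, so the controls carry the replacement too. Marrow cells were grown for 7 days in medium with 10 ng/mL M-CSF. M0 vehicle BMDMs received 0.1% DMSO and no stimulus, and M0 VLX-1005 BMDMs received 10 µM of the inhibitor and no stimulus. M1 vehicle and M1 VLX-1005 BMDMs had the same pretreatments for 1 hour and were then stimulated with LPS at 10 ng/mL and IFN-γ at 25 ng/mL. The methods give 18 hours of stimulation and the schematic of the experiment 24 hours. No source used here says that the 4 libraries of a group came from separate mice, so each p-value refers to library-to-library spread alone, and that spread may be technical.

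Interferons bind receptors that activate JAK kinases and STAT transcription factors, and the STATs switch on a large set of antiviral and antigen-presenting genes. Cells restrain this response at several levels: they block the receptor, remove phosphates from the kinases, limit the helicases that sense viral RNA, and edit or degrade the cell's own nucleic acids so that these are not sensed. Several of these brakes are themselves interferon-induced genes, and in macrophages IFN-γ and LPS are both known to engage them.

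Usp18 binds the type I interferon receptor and blocks its kinase, and removes the ubiquitin-like protein ISG15 from its targets. Dhx58 encodes LGP2, a relative of the RNA sensors RIG-I and MDA5 that lacks their signaling domains. Adar converts adenosine to inosine in double-stranded RNA. Ptpn6 encodes SHP-1, a tyrosine phosphatase of blood cells. Samhd1 degrades deoxynucleotides. Of the rows opposite, Chrnb2 encodes a subunit of the neuronal nicotinic acetylcholine receptor, while Gm44148 is annotated as a long intergenic noncoding RNA and Dhx58os and Gm20531 as antisense RNAs.

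In GENCODE release 21 for mouse (GRCm38, the assembly called mm10), Usp18 (ENSMUSG00000030107.10) lies at chr6:121245906-121270917 on the plus strand and Gm44148 (ENSMUSG00000107736.1) at chr6:121255203-121272685 on the minus strand. Dhx58 (ENSMUSG00000017830.15) lies at chr11:100694884-100704271 on the minus strand and Dhx58os (ENSMUSG00000085604.1) at chr11:100687417-100697520 on the plus strand. Adar (ENSMUSG00000027951.16) lies at chr3:89715022-89753446 on the plus strand and Chrnb2 (ENSMUSG00000027950.7) at chr3:89746195-89764632 on the minus strand. Ptpn6 (ENSMUSG00000004266.15) lies at chr6:124720707-124738714 on the minus strand and Gm20531 (ENSMUSG00000092482.1) at chr6:124732168-124738040 on the plus strand. Samhd1 (ENSMUSG00000027639.16) lies at chr2:157097533-157135265 on the minus strand, and no exon of another gene in the table overlaps its exons on the other strand. The exons shared by a pair were short. Gm44148 shares 124 of its 316 exonic bases (39.24%) with Usp18, Dhx58os 141 of 1594 (8.85%) with Dhx58, and Gm20531 195 of 1373 (14.2%) with Ptpn6, in each case wholly within the coding sequence of the regulator. Chrnb2 shares 1365 of its 8380 exonic bases (16.29%) with Adar, 351 of them in the coding sequence of Adar and 135 in its own.

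**Figure D1:**
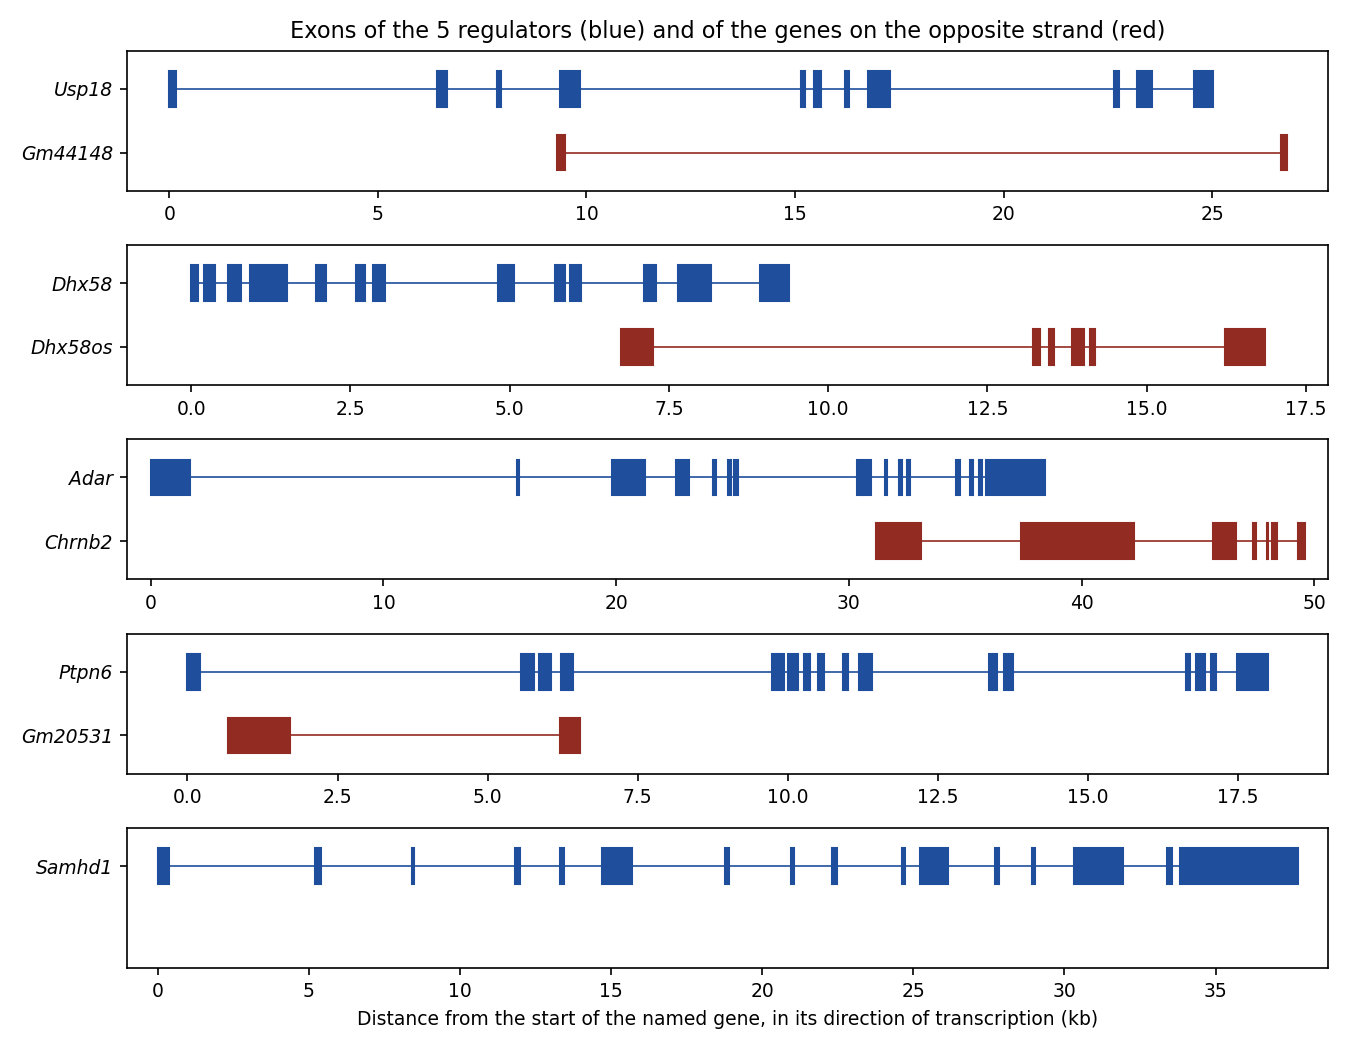
Exons of the 5 regulators (blue) and of the genes on the opposite strand (red) by distance from the start of the regulator in its direction of transcription, in kb; boxes are merged exons and lines join the exons of 1 gene. Each of the 4 pairs shares 124 to 1365 exonic bases, and Samhd1 has no opposite partner.

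The coding exons in which the pairs overlap are shown because they are the bases that both genes of a pair carry, one on each strand, and so the place where reads of one gene could be counted for the other. Each is given 5′ to 3′ on the strand of the regulator, with the bases that an exon of the opposite gene also covers in capitals. They are exon 4 of Usp18 (chr6:121255264-121255409, plus strand), exon 11 of Dhx58 (chr11:100696976-100697166, minus strand) and exon 3 of Ptpn6 (chr6:124732300-124732494, minus strand), from the GENCODE transcripts on GRCm38.
Usp18 exon 4: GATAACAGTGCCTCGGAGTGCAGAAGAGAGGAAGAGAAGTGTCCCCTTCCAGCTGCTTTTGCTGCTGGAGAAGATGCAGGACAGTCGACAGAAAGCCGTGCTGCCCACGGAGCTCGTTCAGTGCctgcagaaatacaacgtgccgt
Dhx58 exon 11: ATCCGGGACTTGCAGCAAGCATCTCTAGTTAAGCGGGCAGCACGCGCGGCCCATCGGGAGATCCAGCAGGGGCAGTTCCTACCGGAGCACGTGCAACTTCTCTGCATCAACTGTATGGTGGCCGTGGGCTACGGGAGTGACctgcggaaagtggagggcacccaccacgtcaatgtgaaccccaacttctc
Ptpn6 exon 3: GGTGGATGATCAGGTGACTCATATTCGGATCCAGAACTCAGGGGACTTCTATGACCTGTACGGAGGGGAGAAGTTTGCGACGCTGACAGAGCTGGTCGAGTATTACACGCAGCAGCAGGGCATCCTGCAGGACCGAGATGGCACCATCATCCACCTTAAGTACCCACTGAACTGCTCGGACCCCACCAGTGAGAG
In Usp18 the first 124 of 146 bases are shared, in Dhx58 the first 141 of 191, and in Ptpn6 all 195.

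Promoters of the 5 regulators were searched for the letters through which interferons are known to act. The RefSeq promoter table (GRCm38.p6; 250 bases before to 50 after each start) held Adar, with 3 starts, Ptpn6 and Samhd1. Usp18 and Dhx58 were not among its entries. Letters searched on both strands were GAAANNGAA, the core of the interferon-stimulated response element, and TTCNNNGAA, the gamma-activated site that binds STAT dimers. The core was found in 8.56% and the gamma-activated site in 8.3% of 32851 promoters of the same 300 bases. Start 3 of Adar (chr3:89730468-89730767, plus strand) held the core at positions -249 and 33 from the start, and a gamma-activated site at position 22. The Samhd1 promoter (chr2:157135047-157135346, minus strand) held a gamma-activated site at position -235. These letters were not in the windows of the other Adar starts or of Ptpn6. Capitals mark the matches.
Adar, start 3: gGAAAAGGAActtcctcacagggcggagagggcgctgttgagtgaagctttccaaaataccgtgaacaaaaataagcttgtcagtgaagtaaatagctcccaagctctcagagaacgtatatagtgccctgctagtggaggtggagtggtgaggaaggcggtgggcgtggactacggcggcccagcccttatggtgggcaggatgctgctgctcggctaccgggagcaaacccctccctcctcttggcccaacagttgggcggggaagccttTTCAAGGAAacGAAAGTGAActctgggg
Samhd1: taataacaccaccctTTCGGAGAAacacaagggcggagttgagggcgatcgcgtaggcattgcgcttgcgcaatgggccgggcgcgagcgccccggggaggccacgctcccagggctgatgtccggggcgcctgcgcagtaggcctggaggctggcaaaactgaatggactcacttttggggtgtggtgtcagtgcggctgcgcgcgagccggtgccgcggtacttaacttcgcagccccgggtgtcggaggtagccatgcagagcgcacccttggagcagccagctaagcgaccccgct
A match describes letters in these windows and is not evidence of a bound factor.

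Library totals were 939584 to 1158095 counts. Mouse Alox15, the replaced gene, had 0 counts in all 16 libraries. This is not a check of the replacement, because the strand that was counted is not stated. Of the mitochondrial rows, 9 lie on the minus and 28 on the plus strand, and 89.16% to 95.76% of mitochondrial counts per library were on the minus-strand rows. In addition, 96.19% to 96.87% of all counts lay in rows whose exons overlap those of an opposite-strand gene, while 8460 of the 48440 rows have such an overlap. The libraries were strand-specific, but no source used here states which strand was counted. Transcripts of a row and of the gene opposite therefore cannot be told apart, and each row is described as a row. A low or high count on a row does not show how much the gene it is named for was expressed. Replicates 2 and 3 of M0 vehicle and replicate 3 of M0 VLX-1005 stood apart on the second principal component of the 500 most variable rows, which held 0.93% of the variance, at -4.07, -8.29 and -7.63 against 2.2 to 5.85 for the other M0 libraries. Macrophage markers (7 of 7 rows with counts in each group, Csf1r the highest) summed to 273 to 370 CPM (counts scaled to a library of 1000000) per library. Csf1r had log2 fold changes of 0.09 (vehicle) and 0.07 (VLX-1005) with polarization, neither called. Scaled by library totals, it was called lower (-0.38 and -0.43). Hmgxb3, the row opposite Csf1r, dropped from 220 to 40.1 CPM under vehicle (-2.45) and from 219 to 31.7 CPM under VLX-1005 (-2.78). Which gene of this pair the counts came from was not tested. Single markers moved in opposite directions: with vehicle Lyz2 went from 97.3 to 17.0 CPM in M1 (log2 fold change -2.50; -1.78 with VLX-1005) and Adgre1 from 14.8 to 45.1 CPM (1.61 and 1.40). Cd68, at 9.08 CPM in M0 vehicle, had -0.79 with vehicle (edgeR adjusted p = 0.111) and fell by 2.99 with VLX-1005, to 0.924 CPM. Cd68 had enough counts to be tested through its M0 libraries alone, which favored a fall. Neither VLX-1005 against vehicle in M1 (-2.42, edgeR adjusted p = 0.998) nor the difference between these changes was called for Cd68. Summed own rows of markers of T cells, B cells, neutrophils and fibroblasts were at most 3.06 CPM. Since macrophage genes such as Mertk (1.98 CPM) and Fcgr1 (0.394 CPM in M0 vehicle) were also low on their own rows, these low sums set no limit on the presence of such cells. Among dendritic cell markers, Flt3 and Zbtb46 were at 0 in all groups, while the Xcr1 row, and with it the sum, was at 0 to 4.89 CPM in M0 and 167 to 257 CPM in M1 libraries. Xcr1 thus moved with the M1 state, and its part in the results below was not tested. In bulk RNA, fewer cells of a type and less RNA per cell cannot be told apart.

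The rows of a pair differed greatly in counts. Over all 16 libraries, Gm44148 had 48679 counts and Usp18 87. Dhx58os had 10813 and Dhx58 12. Chrnb2 had 34423 and Adar 35, and Gm20531 had 35032 and Ptpn6 72. By total, Gm44148, Gm20531, Chrnb2 and Dhx58os ranked 54, 77, 79 and 254 among all rows, and Samhd1, with 329 counts, ranked 2303. The 9 rows together took 0.265 ± 0.013% of a library's counts in M0 vehicle, 0.268 ± 0.0158% in M0 VLX-1005, 1.32 ± 0.0589% in M1 vehicle and 1.26 ± 0.0535% in M1 VLX-1005 BMDMs (SD, n = 4 each).

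**Figure D2:**
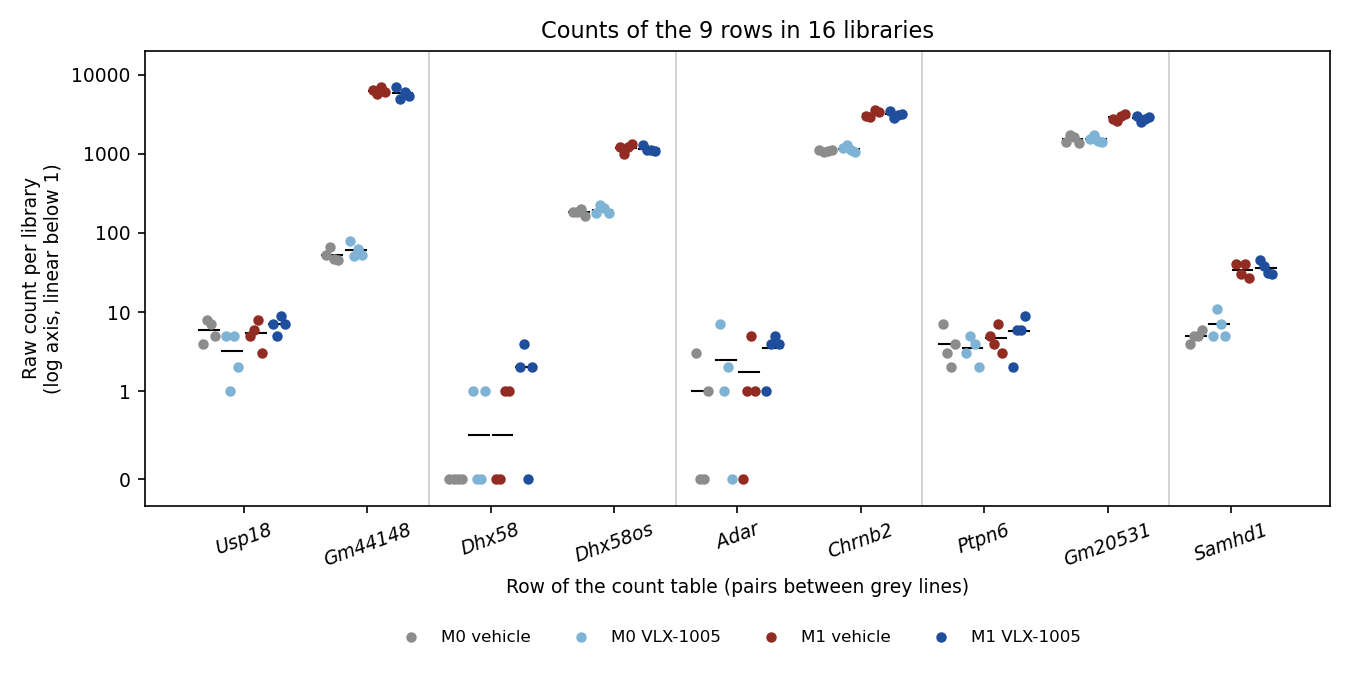
Raw counts of the 9 rows in each of the 16 libraries on a log axis (linear below 1); points are libraries, colored by group, and short lines are group means (n = 4). The rows of Gm44148, Dhx58os, Chrnb2, Gm20531 and Samhd1 were higher in every M1 than in every M0 library, and the rows of Usp18, Dhx58, Adar and Ptpn6 had 9 counts or fewer in each library.

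With polarization, the row opposite the receptor brake Usp18 rose most among the tested members. Gm44148 had 53, 66, 47 and 46 counts in the M0 vehicle libraries and 6331, 5639, 6978 and 5976 in the M1 vehicle libraries. With VLX-1005 it had 80, 51, 62 and 52 counts in M0 and 6992, 4892, 6109 and 5305 in M1. The M0 and M1 libraries did not overlap with either treatment, and the libraries of the 2 treatments overlapped within each state. In CPM scaled by TMM (trimmed mean of M values, which corrects library sizes for composition), Gm44148 was at 42.1 ± 7.74 in M0 vehicle and 7259 ± 719 in M1 vehicle (SD, n = 4). The log2 fold change was 7.43 (SE 0.13; 172-fold, 95% interval 142 to 208; edgeR quasi-likelihood test, adjusted p = 5.12e-22). With VLX-1005 its CPM went from 47.4 ± 9.24 to 6799 ± 791 (SD, n = 4), a log2 fold change of 7.16 (SE 0.13; 143-fold; edgeR adjusted p = 7.68e-22). Of all tested rows, 0.956% had a larger increase with vehicle and 1.39% with VLX-1005.

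The Usp18 row itself showed no such step. Its counts were 4, 8, 7 and 5 in M0 vehicle, 5, 1, 5 and 2 in M0 VLX-1005, 5, 6, 8 and 3 in M1 vehicle and 7, 5, 9 and 7 in M1 VLX-1005 libraries. The vehicle groups overlapped, and in VLX-1005 libraries the M1 counts were at or above the highest M0 count. The row was too low to be tested with the others. In an edgeR fit with no low-count filter, its log2 fold change between M1 and M0 was 0.34 with vehicle (SE 0.55, adjusted p = 0.777) and 1.57 with VLX-1005 (SE 0.58, adjusted p = 0.0464), and the difference between these was 1.24 (SE 0.80, adjusted p = 1.00). Between VLX-1005 and vehicle in M0 it was -0.89 (SE 0.60, edgeR adjusted p = 0.768).

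Dhx58os, opposite the helicase gene Dhx58, rose by about an order of magnitude. It had 183, 184, 200 and 165 counts in M0 vehicle and 1206, 991, 1204 and 1309 in M1 vehicle libraries. With VLX-1005 it had 181, 223, 207 and 176 in M0 and 1280, 1113, 1109 and 1082 in M1. Every M1 library lay above every M0 library, and the treatments overlapped within each state. Its log2 fold change was 3.24 with vehicle (SE 0.08; 9.43-fold; edgeR adjusted p = 1.97e-19) and 3.14 with VLX-1005 (SE 0.08; 8.80-fold; edgeR adjusted p = 3.24e-19). The row of Dhx58 itself had 0 counts in all 4 M0 vehicle libraries, where a count of 0 allows up to 3 counts, and 1, 0, 0 and 1 in M0 VLX-1005. It had 0, 0, 1 and 1 in M1 vehicle and 2, 4, 0 and 2 in M1 VLX-1005 libraries. No change of the Dhx58 row was detectable at this depth, and it was not called in the fit with no low-count filter (edgeR adjusted p = 0.339 with vehicle and 0.284 with VLX-1005).

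Among the rows of the RNA editing gene, Chrnb2 carried nearly all counts. It had 1106, 1065, 1097 and 1112 counts in M0 vehicle and 2961, 2944, 3608 and 3334 in M1 vehicle libraries. With VLX-1005 it had 1165, 1273, 1102 and 1060 in M0 and 3507, 2800, 3128 and 3161 in M1. The M1 libraries were all above the M0 libraries, and the replicate spread was small, with a coefficient of variation of CPM between 3.69% and 5.41% in the 4 groups. Chrnb2 rose by 2.10 on the log2 scale with vehicle (SE 0.06; 4.29-fold; edgeR adjusted p = 7.87e-19) and by 2.05 with VLX-1005 (SE 0.06; 4.13-fold; edgeR adjusted p = 1.27e-18). The Adar row had 3, 0, 0 and 1 counts in M0 vehicle and 7, 1, 2 and 0 in M0 VLX-1005 libraries. In M1 it had 0, 1, 5 and 1 with vehicle and 1, 4, 5 and 4 with VLX-1005. These 4 groups overlapped one another, and no difference was detectable at this depth.

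Gm20531, opposite the phosphatase gene Ptpn6, was the most abundant tested member at rest and rose least. It had 1407, 1728, 1604 and 1384 counts in M0 vehicle and 2770, 2601, 2998 and 3160 in M1 vehicle libraries. With VLX-1005 it had 1546, 1742, 1456 and 1398 in M0 and 3029, 2520, 2756 and 2933 in M1. The states did not overlap and the treatments did. The log2 fold change was 1.46 with vehicle (SE 0.07; 2.76-fold; edgeR adjusted p = 5.55e-15) and 1.47 with VLX-1005 (SE 0.07; 2.76-fold; edgeR adjusted p = 5.60e-15). The Ptpn6 row had 7, 3, 2 and 4 counts in M0 vehicle and 3, 5, 4 and 2 in M0 VLX-1005 libraries. In M1 it had 5, 4, 7 and 3 with vehicle and 2, 6, 6 and 9 with VLX-1005. All 4 groups overlapped.

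Samhd1, the only regulator whose own row was tested, has no opposite partner. It had 4, 5, 5 and 6 counts in M0 vehicle and 40, 30, 40 and 27 in M1 vehicle libraries. With VLX-1005 it had 5, 11, 7 and 5 in M0 and 45, 38, 31 and 30 in M1. The states did not overlap, but the row passed the low-count filter only through its M1 libraries. Its CPM went from 3.96 ± 0.641 to 40.1 ± 9.21 with vehicle and from 5.38 ± 1.98 to 42.1 ± 7.32 with VLX-1005 (SD, n = 4). The log2 fold change was 3.30 with vehicle (SE 0.30; 9.83-fold, 95% interval 6.40 to 15.1; edgeR adjusted p = 1.74e-09) and 2.93 with VLX-1005 (SE 0.28; 7.64-fold, 95% interval 5.10 to 11.5; edgeR adjusted p = 5.00e-09).

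Read against the background, these calls were common in this system. With vehicle, 66.5% of the 3453 tested rows were called between M1 and M0, 31.7% were called and higher in M1, and 29.1% had every M1 library above every M0 library. With VLX-1005 these shares were 65.3%, 31.5% and 28.8%. All 5 tested member rows were called, higher in M1 and without overlap with either treatment, but since Samhd1 passed the filter through M1 alone and the others were chosen with earlier results known, this count is given as a description. The median log2 fold change of all tested rows was -0.10 with vehicle and -0.08 with VLX-1005. TMM factors were 1.16 to 1.20 in M0 and 0.824 to 0.869 in M1 libraries. Scaling by library totals alone moved the median row by -0.48 with vehicle and by -0.49 with VLX-1005 on the log2 scale, and all 5 member rows were still higher in M1, by 0.99 (Gm20531) to 6.95 (Gm44148) with vehicle. Without the 3 M0 libraries that stood apart, the log2 fold changes with vehicle were 7.48 for Gm44148, 3.26 for Dhx58os, 2.04 for Chrnb2, 1.55 for Gm20531 and 3.25 for Samhd1. With VLX-1005 they were 7.15, 3.14, 2.01, 1.43 and 2.91 in the same order.

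**Figure D3:**
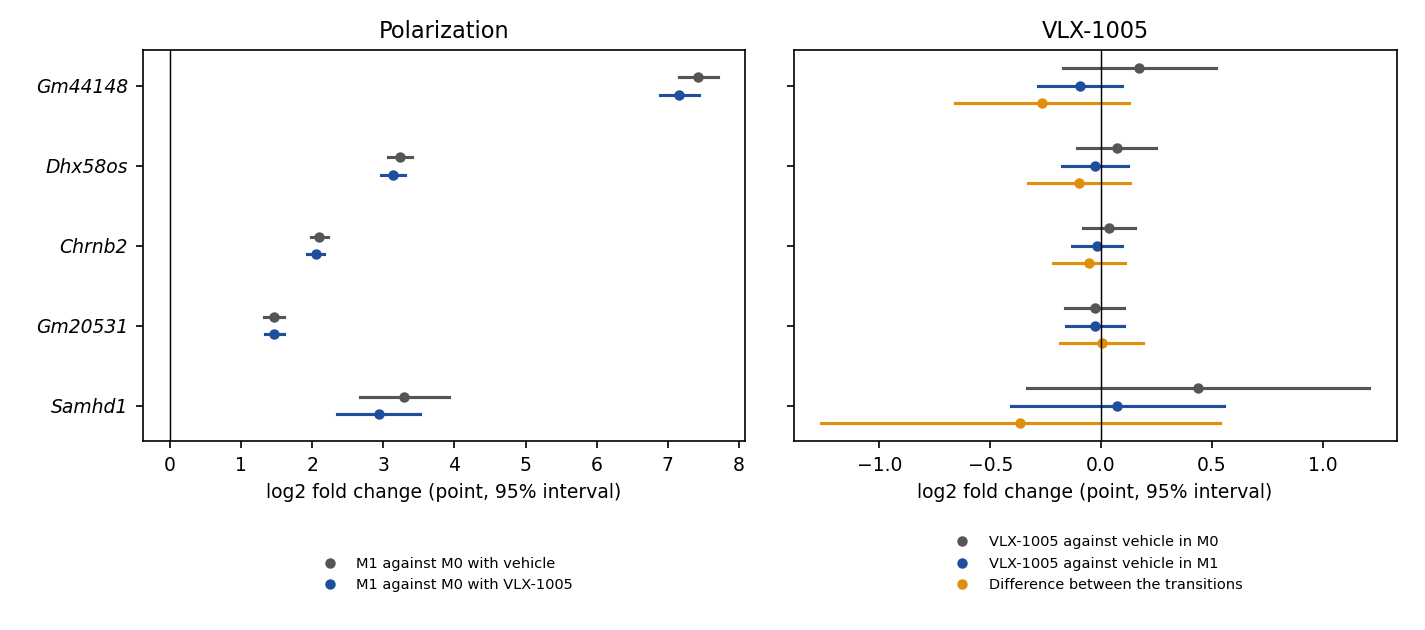
Log2 fold changes of the 5 tested rows with 95% intervals (points and lines; edgeR, 16 libraries), for M1 against M0 with each treatment (left) and for VLX-1005 against vehicle in M0, in M1 and as the difference between the transitions (right). The polarization changes ran from 1.46 to 7.43, and every interval for VLX-1005 included 0.

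VLX-1005 was not found to move any member row. In M1 BMDMs the log2 fold change against vehicle was -0.09 for Gm44148 (95% interval -0.28 to 0.09), -0.03 for Dhx58os (-0.18 to 0.12) and -0.02 for Chrnb2 (-0.13 to 0.10). It was -0.03 for Gm20531 (-0.16 to 0.11) and 0.07 for Samhd1 (-0.40 to 0.55). The intervals of the 4 abundant rows therefore reached at most 0.28 on the log2 scale in either direction, while that of Samhd1 was wider. In M0 BMDMs the values were 0.17 for Gm44148, 0.07 for Dhx58os, 0.04 for Chrnb2, -0.03 for Gm20531 and 0.44 for Samhd1 (95% interval -0.33 to 1.21). The edgeR adjusted p was 0.998 for all 5 rows in M1 and 1 for all 5 in M0, and the unadjusted p lay between 0.281 and 0.75 over both states. The share of all tested rows called was 0% in M0 and 0% in M1. At an unadjusted p under 0.05 edgeR had 103 rows in M0 and 128 in M1, none of them a member, and DESeq2 and limma-voom also called 0 rows. The libraries of the 2 treatments overlapped for all 5 tested members. This was not particular to them, since only 2.46% of tested rows in M0 and 1.97% in M1 did not overlap.

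The polarization changes also did not differ detectably between treatments. The difference, VLX-1005 minus vehicle, was -0.27 for Gm44148 (95% interval -0.66 to 0.13), -0.10 for Dhx58os (-0.33 to 0.13), -0.05 for Chrnb2 (-0.22 to 0.11), 0.00 for Gm20531 (-0.19 to 0.19) and -0.36 for Samhd1 (-1.26 to 0.54), each with an edgeR adjusted p of 1. For this difference too, 0% of tested rows were called (148 at an unadjusted p under 0.05 with edgeR, 0 called by DESeq2 and 0 by limma-voom). The low rows of the regulators summed over 4 libraries to 28 counts in M1 VLX-1005 and 22 in M1 vehicle for Usp18, 8 and 2 for Dhx58, 14 and 7 for Adar, and 23 and 19 for Ptpn6. All of these overlapped between treatments in single libraries, and with no low-count filter none was called (edgeR adjusted p 0.798 to 1).

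The Usp18 row held a lower share of its pair's counts in M1 than in M0 libraries. In M0 vehicle libraries 7.02%, 10.8%, 13% and 9.8% of the pair's counts were on the Usp18 row, and in M1 vehicle libraries 0.0789%, 0.106%, 0.115% and 0.0502%. The mean fell by 10.1 percentage points with vehicle and, with VLX-1005, by 4.62 percentage points from 4.74% to 0.12%. The states did not overlap, and the exact two-sided permutation test gave p = 0.0286 for each treatment, the smallest that 70 labellings allow, or 0.114 after adjustment over 8 such tests. The Usp18 counts lay between 1 and 9 throughout, while the Gm44148 counts rose. The lower share therefore follows from the Gm44148 rise and is not a separate result. In the other pairs the regulator's row held at most 0.597% of the counts in any library, and the M1 and M0 shares overlapped (exact permutation test, adjusted p = 0.771 for each of the 6 tests).

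**Figure D4:**
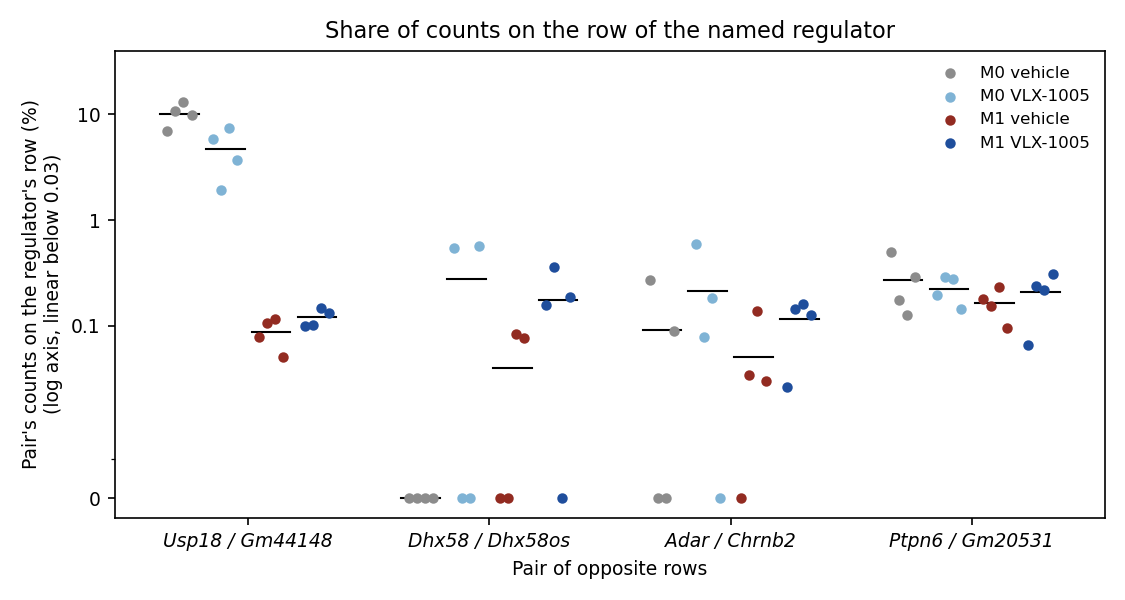
Percent of a pair's counts that lie on the regulator's row in each library, on a log axis that is linear below 0.03; points are libraries colored by group and lines are group means (n = 4). The Usp18 share was 1.92% to 13% in M0 and 0.0502% to 0.147% in M1 libraries, and the other 3 shares stayed at or below 0.597%.

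Per kb of exon, counting all exonic bases of a row, the tested rows spanned a wide range of values. Where in a row its reads fell was not tested, so the orders below hold for this division alone. In M1 vehicle BMDMs, Gm44148 was at 22970 CPM per kb, Gm20531 at 2438, Dhx58os at 858, Chrnb2 at 445 and Samhd1 at 4.38. In M0 vehicle BMDMs the order of the tested rows was Gm20531 (883), Gm44148 (133), Chrnb2 (104), Dhx58os (91.0) and Samhd1 (0.433). Gm44148 thus moved from the second to the first place and Dhx58os passed Chrnb2. Neighbors in these 2 orders did not overlap in single libraries among the 4 opposite rows, whereas Chrnb2 (100 to 113) and Dhx58os (85.1 to 104) overlapped in M0 VLX-1005 libraries. The untested rows in M1 vehicle were at 2.31 for Usp18, 1.98 for Ptpn6, 0.242 for Adar and 0.167 for Dhx58. In that group Samhd1 (3.16 to 5.47) and Usp18 (1.15 to 3.2) overlapped, as did Usp18 with Ptpn6 and Adar with Dhx58. In M0 vehicle the untested Usp18 (1.70) and Ptpn6 (1.14) were above Samhd1, and Adar (0.0999) was below it.

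The tested rows most like each member over the 16 libraries were found by the root mean square difference of log2 CPM centred on each row's mean, as a description. Closest to Gm44148 were Gm26584, opposite the arginine transporter gene Slc7a2 (0.21), Rsad2, which encodes the antiviral protein viperin (0.21), and Tnfrsf8, which encodes the receptor CD30 (0.25), where the median of all other rows was 3.69. Closest to Dhx58os were Psmb9, an immunoproteasome subunit gene opposite the peptide transporter gene Tap1 (0.16), D530033B14Rik, opposite 1600014C10Rik (0.16), and Gm42917, opposite Trafd1 (0.17). Closest to Chrnb2 were Cyren (0.07), Pde6h (0.07) and Gm43963 (0.07), opposite Tmem140, Arhgdib and Irak2. Closest to Gm20531 were Tor1aip2 (0.08), opposite Tor1aip1, Ccdc167 (0.08), opposite Cmtr1 and Gm28043, and Gm20650 (0.10), opposite Tmem219. Closest to Samhd1 were Gm38247 (0.23), E430024P14Rik (0.27), opposite Tagap and Rsph3a, and Gm19412 (0.27), opposite Tapbp and Zbtb22. In M0 vehicle BMDMs Rsad2 was at 0 CPM, Tnfrsf8 at 0.793 CPM and Gm38247 at 0 CPM. The distances of these rows therefore depend on the prior count of 2 added before the log2 was taken.

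The members act within a wider pathway, whose genes were listed by role with their own rows and rows opposite. The low-count filter kept a row that reached 9.27 CPM (on library totals) in at least 4 of the 16 libraries. A row that did so in the 8 libraries of 1 state alone was favored by the filter to be higher in that state. The counts below are therefore descriptions, to be read beside the 31.7% (vehicle) and 31.5% (VLX-1005) of all tested rows called higher in M1. Of 14 genes for receptors, JAK kinases, STATs and IRF factors, 4 own rows were tested, and all 4 were called higher in M1 with vehicle and 3 with VLX-1005, but Stat2, Irf7 and Irf1 passed the filter through M1 libraries alone. Stat2, a transcription factor of type I interferon signaling, rose by 4.36 (SE 0.66) and 3.23 (SE 0.60), and Irf7, a factor that drives interferon transcription, by 2.27 (SE 0.31) and 2.57 (SE 0.32). Irf1, a primary IFN-γ target, rose by 2.02 (SE 0.48) and 2.54 (SE 0.50), while Gm17334 opposite it went from 217 ± 28.2 to 4750 ± 400 CPM with vehicle (SD, n = 4), a log2 fold change of 4.45 (SE 0.11). Stat3 rose by 1.12 with vehicle (SE 0.32, edgeR adjusted p = 0.00398) and had a value of 0.08 with VLX-1005 (adjusted p = 0.833), and scaled by library totals its vehicle call was lost (0.65, adjusted p = 0.0701). Phrf1, opposite Irf7, also passed through M1 alone and rose by 5.43 (SE 0.38) and 5.38 (SE 0.39). Of 4 tested rows opposite this list, 3 were higher with each treatment. Scaled by library totals, 1700084C06Rik opposite Tyk2 lost its call with VLX-1005 (0.15) and Raver2 opposite Jak1 was called lower with vehicle (-0.80).

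Of 16 nucleic acid sensing genes, 3 own rows were tested and 2 were called higher with each treatment, both having passed the filter through M1 libraries alone. These were Oas3, which makes the second messenger that activates RNase L (3.79, SE 0.40, and 3.78, SE 0.43), and Eif2ak2, the kinase PKR (1.79, SE 0.44, and 1.37, SE 0.41). The Eif2ak2 call with VLX-1005 was lost when scaled by library totals (0.89, edgeR adjusted p = 0.0575) and with no low-count filter (1.29, edgeR adjusted p = 0.0509). Cgas, the DNA sensor, had 0.48 (SE 0.34) and 0.26 (SE 0.36). Of 6 rows opposite, all of which passed the filter in both states, 5 were higher with each treatment, among them Gm26637 opposite Eif2ak2, from 114 ± 18.5 to 434 ± 25.7 CPM with vehicle (SD, n = 4), and Gm8093 opposite Cgas (1.22 and 1.15). Scaled by library totals, Gm45542 opposite Tlr3 was no longer called (0.06 and 0.00; main values 0.53 and 0.50) and Bcl2l12 opposite Irf3 was called lower (-0.42 and -0.72). The Gm45542 calls were also lost with no low-count filter (edgeR adjusted p = 0.213 and 0.309) and, with VLX-1005, under upper quartile scaling (edgeR adjusted p = 0.0731). None of the 20 other negative regulators, SOCS and PIAS proteins among them, had an own row with enough counts to be tested. The 3 tested rows opposite them were called higher with each treatment: Gm17041 (5.72 and 5.38) and Gm17040 (5.74 with vehicle, and 0 counts in every M0 VLX-1005 library), opposite the SOCS family member Cish, and Gm43966 (1.27 and 1.32), opposite Tax1bp1. Gm17041, at 1.00 CPM in M0 vehicle, and Gm17040, at 0.199 CPM, passed the filter through M1 libraries alone.

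Of 10 genes that clear or edit nucleic acids, as Adar edits RNA, or supply the deoxynucleotides that Samhd1 degrades, 4 own rows were tested. Rnaseh2a (0.41 and 0.56), Rnaseh2c (0.39 and 0.44), both subunits of the enzyme that cuts RNA from DNA, and Tk1, thymidine kinase (0.74 and 0.66), were higher in M1. Scaled by library totals, none of these 3 was called, and the direction turned for Rnaseh2c (-0.09 and -0.05) and, with vehicle, for Rnaseh2a (-0.07). The rows of Rnaseh2a, Rnaseh2c and Tk1 held 9597, 4580 and 1312 counts over all libraries. Prdx2, Kat5 and Afmid, the rows opposite them, held 129, 74 and 68. Which gene of a pair the counts came from was not tested. The lysosomal nuclease gene Dnase2a fell (-1.36 and -1.37), having passed the filter through M0 libraries alone, and Mast1 opposite it, which passed in both states, fell too (-2.35 and -2.40). Prdx2, opposite Rnaseh2a, likewise passed through M0 alone and fell with vehicle (-1.66) and was called lower with VLX-1005 only when scaled by library totals (-0.81 against -1.29). Of 11 partners of SHP-1, 4 own rows were tested and 2 were called higher with each treatment, both having passed the filter through M1 libraries alone: the kinase gene Lyn (2.59, SE 0.29, and 1.92, SE 0.28) and Ptprc, the phosphatase CD45 (1.12, SE 0.36, and 1.40, SE 0.35). Ptprc lost its vehicle call when scaled by library totals (0.65, edgeR adjusted p = 0.109) and with no low-count filter (1.04, edgeR adjusted p = 0.0551). Sirpa and Pilra, inhibitory receptors, had -0.07 and 0.41 with vehicle. The 2 tested rows opposite, Gm26857 (Lyn) and Zcwpw1 (Pilra), rose by 1.46 and 3.26 with vehicle. No row of these 5 lists was called for VLX-1005 against vehicle in M0 or M1, or for the difference between the transitions.

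**Figure D5:**
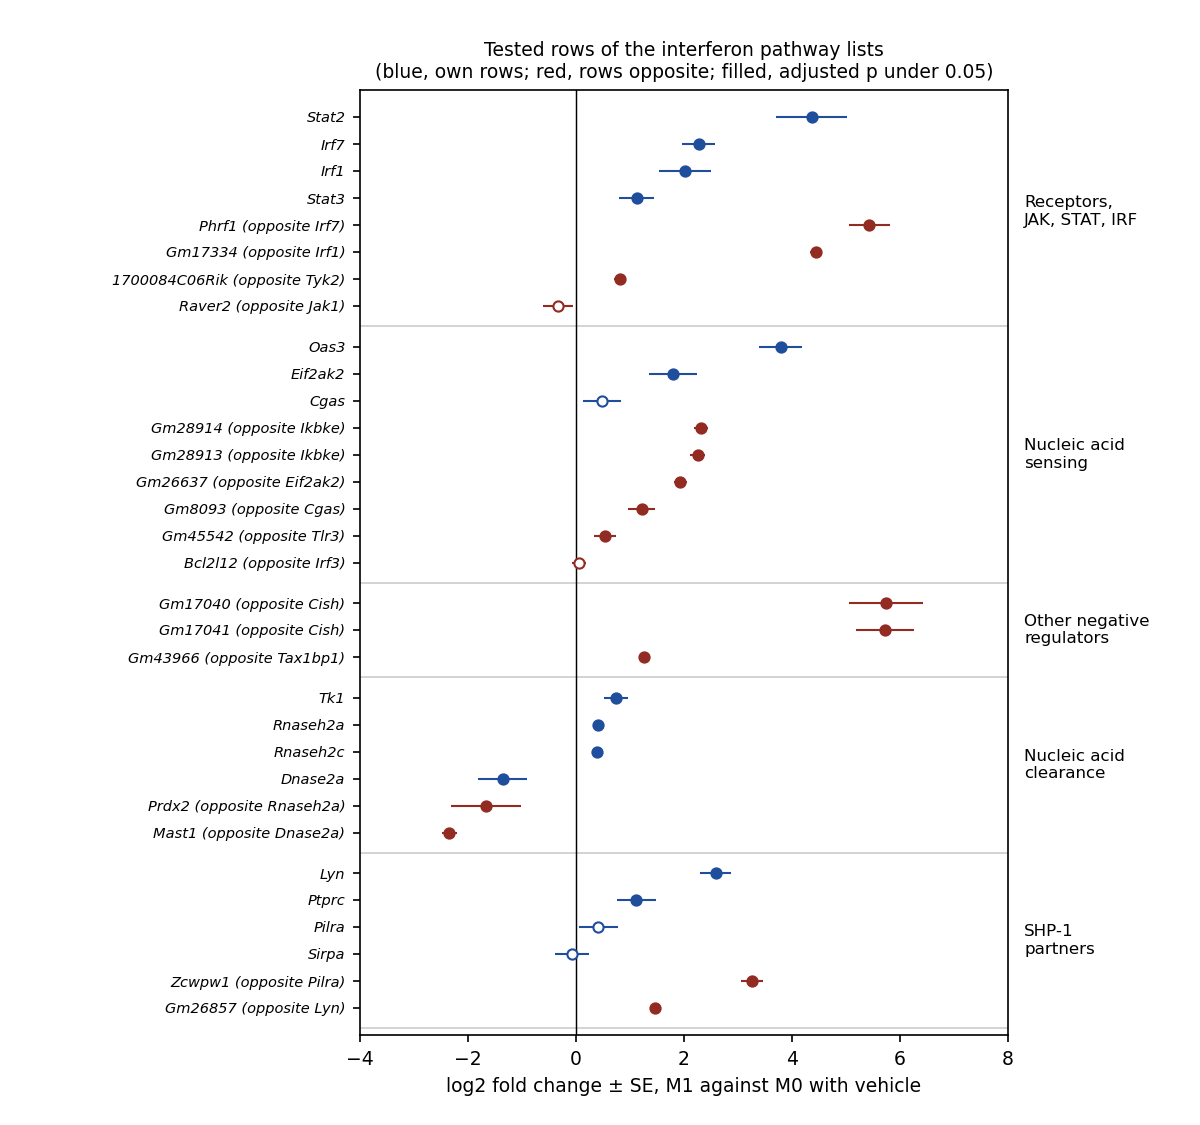
Log2 fold change with SE of M1 against M0 with vehicle for each tested row of 5 pathway lists (blue, own rows; red, rows on the opposite strand; filled symbols, edgeR adjusted p under 0.05). Values ran from -2.35 (Mast1) to 5.74 (Gm17040), and the clearance list held the rows called lower.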

How the data were processed

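RNA was measured in 16 BMDM libraries, whose titles gave group and replicate number. Libraries of polyA RNA kept strand and were run on a NovaSeq. Within Galaxy the authors used HISAT2 for alignment (mm10) and HTSeq-count for counting. Trimmomatic, FastQC and DESeq2 are also named in the submitters' processing notes. Versions, the annotation release and the strand setting were not given in the sources used here. Counts were used as the authors deposited them, unnormalized. Of 48440 row identifiers, 48058 matched GENCODE release 21.

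Rows were filtered with filterByExpr of edgeR 4.0.16 (R 4.3.3), leaving 3453, scaled by TMM and tested by quasi-likelihood with all libraries in 1 model; adjusted p-values (Benjamini-Hochberg) under 0.05 were called. The depth, 939584 to 1158095 counts per library, limits rows of few counts. Shares of pairs were compared by exact permutation. For likeness, log2 CPM had a prior count of 2. Scripts were checked on simulated counts.

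The members and lists were chosen with earlier results of these data known. All 9 members were named. Of each list, up to 4 tested rows of highest CPM and the rows opposite were named, and for each tested member its 3 closest rows. Motifs were searched in 300-base promoters. Alternatives were no filter, a mean of at least 50 counts, RLE and upper quartile scaling, DESeq2 1.42.0, limma-voom 3.58.1, only the groups compared, the replicate block, leaving out each library in turn or 3 M0 libraries together, summed pairs, and the M0 baseline of the other treatment. Scaling by library totals was added after seeing the data. Same-numbered libraries had deviations correlated at -0.067 to 0.05 between M1 and M0. Between VLX-1005 and vehicle the correlations were 0.043 to 0.46 in M0 and 0.04 to 0.091 in M1. The main fits did not take the numbers as pairs, and the replicate block was an alternative. Figures were drawn with matplotlib 3.10.9.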

Additional observations from a re-analysis of the deposited data

How the results depend on the processing

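All 5 tested rows kept their direction and call for M1 against M0 under every alternative in which they were tested, with either treatment; when rows had to average 50 counts, Samhd1 was not tested and 4 rows were called. With no low-count filter 6 rows were called with VLX-1005, the Usp18 row being the sixth. Log2 fold changes over the alternatives were 6.95 to 7.55 for Gm44148, 2.76 to 3.29 for Dhx58os, 1.62 to 2.14 for Chrnb2, 0.99 to 1.55 for Gm20531 and 2.82 to 3.43 for Samhd1 with vehicle, the lowest from library totals. Fits with the replicate block called 5 and 5 member rows for polarization and 0 for each VLX-1005 comparison. Values near 0 turned sign, and the cause was not tested: for VLX-1005 in M0, Gm20531 was 0.11 without 3 M0 libraries and -0.0742 to 0.0383 leaving out 1 library at a time. In M1, leaving out 1 library gave -0.0746 to 0.0238 for Dhx58os, -0.0367 to 0.0204 for Chrnb2 and -0.0554 to 0.198 for Samhd1. The Gm20531 difference between transitions was -0.0022 with no filter, -0.0115 with library totals, -0.124 without the 3 M0 libraries and -0.0652 to 0.0502 leaving out 1 library. The M1 minus M0 share of the pair's counts, leaving out 1 library, was -0.0695 to 0.0206 percentage points for Adar with vehicle, -0.171 to 0.0277 with VLX-1005, and -0.0506 to 0.0294 for Ptpn6 with VLX-1005. No adjusted p was under 0.05 among these. Depth limits the rows of Usp18, Dhx58, Adar and Ptpn6, which had at most 9 counts in a library.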
